A study of Mus musculus with 5 samples.

Results

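Potassium channel genes were followed across cell classes and fat depots in single-nucleus RNA-seq of mouse white adipose tissue. The members were all genes of the deposited gene list whose symbol starts with Kcn, followed by letters and a number, with antisense, overlapping and pseudogene transcripts left out. The rule gave 93 genes of 32285. They comprise 30 voltage-gated pore genes, 10 silent voltage-gated subunit genes, 15 inward rectifiers, 14 leak channels with a pair of pore domains, 8 pore genes of the calcium- or sodium-activated families and their relatives (the large-conductance, small-conductance and related families), and 16 genes of auxiliary subunits. At least 1 unique molecular identifier (UMI) was counted in retained nuclei for 88 of them. Kcna10, Kcnk15, Kcnk16, Kcns1 and Kcns2 had none.

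The series holds 5 libraries, 1 per depot. The peri-heart depot (HWAT) pooled fat of 20 mice, the mesenteric depot (MWAT) of 10 mice, and the epididymal (EWAT), perirenal (NWAT) and subcutaneous (SWAT) depots of 6 mice each. All animals were chow-fed, wild-type males of 10 weeks, perfused with heparin before collection, and lymph nodes were taken off SWAT and MWAT. The protocol names C57BL/6J for every mouse. The strain field departs from it in 3 libraries, where HWAT has C57BL/9J, MWAT has C57BL/7J and NWAT has C57BL/8J. Because each depot is 1 pooled library, depot, pool, library and depth cannot be told apart, no test between depots was possible, and every interval below is a 95% interval that covers counting error only.

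The libraries held 23313545 to 43855063 UMIs in 12324 to 19770 barcodes. After filters and removal of predicted doublets 66249 of 76040 barcodes were kept, with median UMIs per nucleus of 1481 in HWAT, 1196 in MWAT, 2118 in EWAT, 2577 in NWAT and 1746 in SWAT. Any pair of libraries shared 40 to 87 barcode sequences, at most 0.601% of the smaller library. Nuclei were clustered without the member genes, and clusters were named X-like from marker genes, which gave 17 classes and left 765 nuclei unnamed. The classes differed in how far their markers set them apart. The summed marker level was 9415 to 15741 CPM (counts per 1e6 UMIs of the class) in macrophage-like nuclei, against at most 1694 CPM in any other class, and 7148 to 8290 CPM in pericyte-like nuclei, against at most 3216 CPM elsewhere. The fibro-adipogenic progenitor (FAP) list was less separate, at 13257 to 19012 CPM in FAP-like nuclei and up to 13501 CPM in mesothelial-like nuclei, as was the epithelial list, at 1578 to 2866 CPM in epithelial-like nuclei and up to 2015 CPM in another class.

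Potassium channels let potassium ions leave the cell along their gradient and so set the resting membrane potential and end electrical activity. Voltage-gated, calcium-activated, inwardly rectifying and leak channels differ in what opens them, and auxiliary subunits change their gating and their traffic to the membrane. In adipose tissue they are best known from the muscle cells and pericytes of blood vessels, from nerves and from immune cells, and leak and voltage-gated channels have also been described in adipocytes.

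Members took up 0.0604% of the UMIs of retained nuclei in HWAT, 0.204% in MWAT, 0.0684% in EWAT, 0.0569% in NWAT and 0.0431% in SWAT. MWAT stood apart from the other depots, and its library also differed in makeup. It held 3611 smooth muscle-like nuclei, against 11 in HWAT, 134 in EWAT, 46 in NWAT and 98 in SWAT, together with 187 nuclei like interstitial cells of Cajal, the pacemaker cells of the gut wall, and 94 neuron-like nuclei. The clusters of smooth muscle-like nuclei that held MWAT nuclei alone, or nearly so, were led by genes such as Actg2, Chrm2, Ryr3 and Myh11. Free RNA in a droplet library gives UMIs in nuclei that do not express a gene, so low levels of a member in one class were read beside the levels of the class that held most of it.

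Counts were summed per class and library. A member was called enriched in a class when its mean CPM there, averaged over libraries that held 50 or more such nuclei, was at least 3 times that of the next class. Of the 93 members, 52 had the required 100 UMIs over the named classes and 41 did not. Kcnh1 lay just inside this limit with 117 UMIs and Kcnh7 just outside with 88. Of the 52 members, 21 were enriched in 1 class, against 14.3% of all 16846 genes with enough UMIs. By family, these were 9 of 20 voltage-gated pore genes, 2 of 3 silent subunits, 4 of 5 inward rectifiers, 2 of 6 leak channels, 1 of 8 pores of the calcium- or sodium-activated families and their relatives, and 3 of 10 auxiliary subunits. No member reached 1 CPM in every class of every library. Levels of different genes are not compared here, since 3′-end counts are not corrected for how well each gene is captured.

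**Figure D1:**
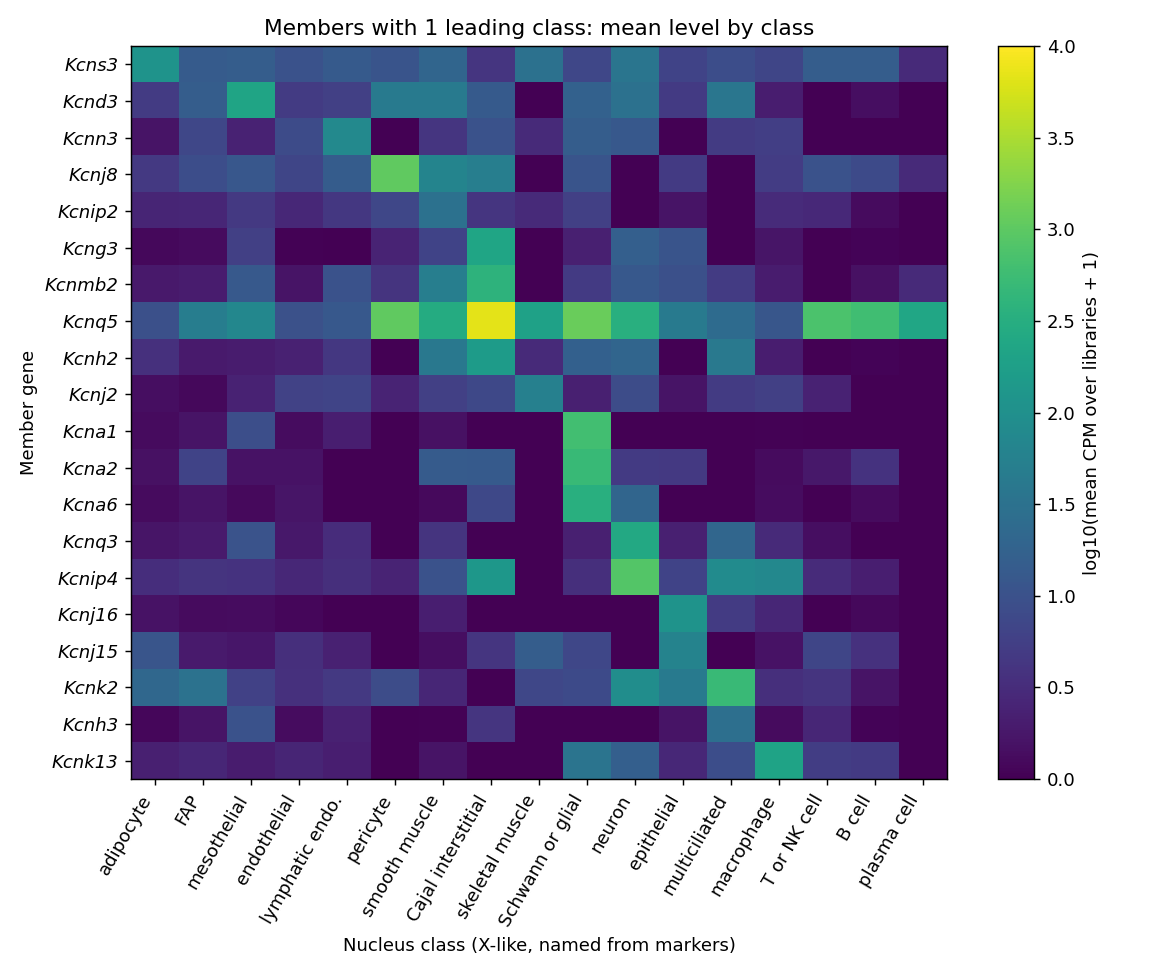
Mean level of 20 of the 21 enriched members (down the page) in the 17 marker-defined classes (across), coloured by log10 of mean CPM plus 1 over the libraries that held at least 50 nuclei of the class. Each member has its brightest cell in 1 class, and 3 voltage-gated genes share the Schwann or glial-like column.

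The voltage-gated genes Kcna1, Kcna2 and Kcna6, which encode Shaker-type channels known from myelinated axons, were all enriched in Schwann or glial-like nuclei, a class in which 0.772% of all genes were enriched. Kcna1 stood at 404 CPM (interval 343 to 471) in MWAT and 828 CPM (685 to 992) in SWAT Schwann or glial-like nuclei, the libraries with enough of them (349 and 79 nuclei). Its mean there was 616 CPM, 76.8 times the 8.01 CPM of mesothelial-like nuclei. Kcna2 stood at 431 CPM in MWAT and 561 CPM in SWAT, a mean 37.9 times that of smooth muscle-like nuclei. Kcna6 stood at 270 CPM in MWAT and 393 CPM in SWAT, a mean 17.4 times that of neuron-like nuclei. The ratio to the next class was 96.5 where doublets were removed at the higher rate of 1.6% per 1000 nuclei. No neuron-like class was named in that setting, so the 2 ratios are not to the same class. All 3 genes thus had their highest level in the same class in both libraries. Kcna1 and Kcna6 are neighbours on chromosome 6, 61.9 kb apart in the GRCm38 annotation, next to Kcna5 at 105 kb from Kcna1, while Kcna2 lies on chromosome 3. Kcna5, a channel known from vascular and atrial muscle, did not share the class: its highest level was 58.8 CPM, in EWAT smooth muscle-like nuclei.

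RefSeq promoters (GRCm38.p6, 250 bases before to 50 after each start) were at hand for 68 of the 93 members. They are printed for Kcna2 and Kcna6 because these genes shared their leading class from different chromosomes. Capitals mark the GC box letters GGGCGG, searched on both strands, the other strand reading CCGCCC. Kcna2 spans chr3:107101317-107101616 on the plus strand and Kcna6 chr6:126740625-126740924 on the minus strand, each printed 5′ to 3′ in the direction of the gene.
Kcna2: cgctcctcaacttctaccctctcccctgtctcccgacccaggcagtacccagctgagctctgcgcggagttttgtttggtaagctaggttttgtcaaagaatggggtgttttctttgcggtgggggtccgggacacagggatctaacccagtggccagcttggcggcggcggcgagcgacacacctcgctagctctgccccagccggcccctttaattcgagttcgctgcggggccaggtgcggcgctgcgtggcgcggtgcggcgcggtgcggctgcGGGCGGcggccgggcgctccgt
Kcna6: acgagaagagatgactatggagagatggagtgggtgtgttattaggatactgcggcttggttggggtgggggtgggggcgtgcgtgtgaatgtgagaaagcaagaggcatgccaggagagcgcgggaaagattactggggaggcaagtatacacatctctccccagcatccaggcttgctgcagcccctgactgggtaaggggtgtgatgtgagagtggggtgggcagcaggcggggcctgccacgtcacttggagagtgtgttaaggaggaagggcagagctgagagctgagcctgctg
The Kcna2 window held 1 match and 66.7% G and C, and the Kcna6 window held no match to these letters and 58.3% G and C. The letters occurred in 45 of the 93 member promoters (48.4%; some genes have several starts) and in 35.7% of all 32851 promoters of the table, so a match is a common feature.

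Among the other voltage-gated pore genes, Kcnd3 and Kcnd2, which encode A-type channels that open and inactivate quickly, were high in mesothelial-like nuclei, the lining of the body cavities. Kcnd3 stood at 51.1 CPM (45.9 to 56.7) in HWAT, against 245 CPM in MWAT, 261 CPM in EWAT and 294 CPM in NWAT. The mean was 213 CPM, 5.09 times the 41.9 CPM of smooth muscle-like nuclei, and the ratio was 2.0 when nuclei with under 500 genes were left out. In that setting the smooth muscle-like clusters held MWAT nuclei alone, so the smooth muscle-like mean was not over the same depots. In the main clustering, mesothelial-like nuclei were at least 3 times any other class in 2 of 4 libraries. SWAT held 2 mesothelial-like nuclei and gave no value. Kcnd2 stood at 485 CPM in HWAT, 418 CPM in MWAT, 221 CPM in EWAT and 482 CPM in NWAT mesothelial-like nuclei. It missed the enrichment rule, since neuron-like nuclei stood at 270 CPM and MWAT Schwann or glial-like nuclei at 265 CPM. HWAT was thus the lowest depot for Kcnd3 and level with NWAT for Kcnd2. Kcnab1, a cytosolic subunit of voltage-gated channels, stood at 98.3 CPM in HWAT, 975 CPM in MWAT, 703 CPM in EWAT and 606 CPM in NWAT mesothelial-like nuclei, with higher values in smooth muscle-like nuclei of EWAT and SWAT.

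Kcnq genes encode slow channels of the M-current type. Kcnq3 was enriched in neuron-like nuclei of MWAT, at 259 CPM (201 to 328), 13 times the next class, a ratio of 54.9 with doublets kept. Unnamed clusters do not enter these ratios. Kcnq3 stood at 99.4 CPM (54.4 to 167) and 181 CPM (120 to 261) in unnamed MWAT clusters of 153 and 120 nuclei, the second interval overlapping that of neuron-like nuclei.

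Kcnq5 had its highest level, 6856 CPM, in the nuclei of MWAT that were like interstitial cells of Cajal, 5.56 times the mean of Schwann or glial-like nuclei, which stood at 2164 CPM in MWAT and 302 CPM in SWAT. The class like interstitial cells of Cajal joined unlike clusters. Of its 187 nuclei, 110 (58.8%) were in a cluster led by Hs3st4, Etv1 and Lrp1b. At Leiden resolution 2 another part, of 79 nuclei, was led by Kit, Gria1, Fat3, Kcnq5 and Esrrb. Member levels were not read apart in these parts. A cluster of 226 MWAT nuclei led by Kit, Esrrb and Kcnq5, which did not meet the naming rule, stood higher still at 11531 CPM (11136 to 11936). Kcnq5 also stood at 857 to 1248 CPM in pericyte-like nuclei of 4 depots, at 236 to 1190 CPM in T or NK cell-like nuclei of 5 depots and at 336 to 874 CPM in B cell-like nuclei of 3 depots. Where members were allowed among the genes used for clustering, Kcnq5 in the class like interstitial cells of Cajal was at 0.128 times the next class and the silent subunit gene Kcng3 at 0.752 times, so both enrichments depend on where that class is drawn. In the main clustering Kcng3 stood at 222 CPM (173 to 279) there, from 71 UMIs. Kcnh2, the repolarising channel of the heart, stood at 156 CPM there, 3.93 times the next class, and Kcnmb2, a subunit of the large-conductance calcium-activated channel, at 390 CPM, 7.66 times the mean of smooth muscle-like nuclei. These ratios are to means over depots. Within the MWAT library by itself, neither gene reached 3 times every other class. Smooth muscle-like nuclei in the clusters of MWAT alone stood at 72.2 CPM for Kcnh2 and 157 CPM for Kcnmb2. The unnamed cluster of 226 nuclei stood at 405 CPM (333 to 486) for Kcng3, 283 CPM (224 to 353) for Kcnh2 and 329 CPM (266 to 404) for Kcnmb2. For Kcng3 and Kcnh2 it was thus higher than the class like interstitial cells of Cajal. With only nuclei of at least 500 genes the ratios were 2.85 for Kcnh2 and 2.55 for Kcnmb2, below the limit, and no such class was named when doublets were kept. Among nuclei of at least 500 genes, smooth muscle-like clusters held MWAT nuclei alone, so that mean was not over the same depots.

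**Figure D2:**
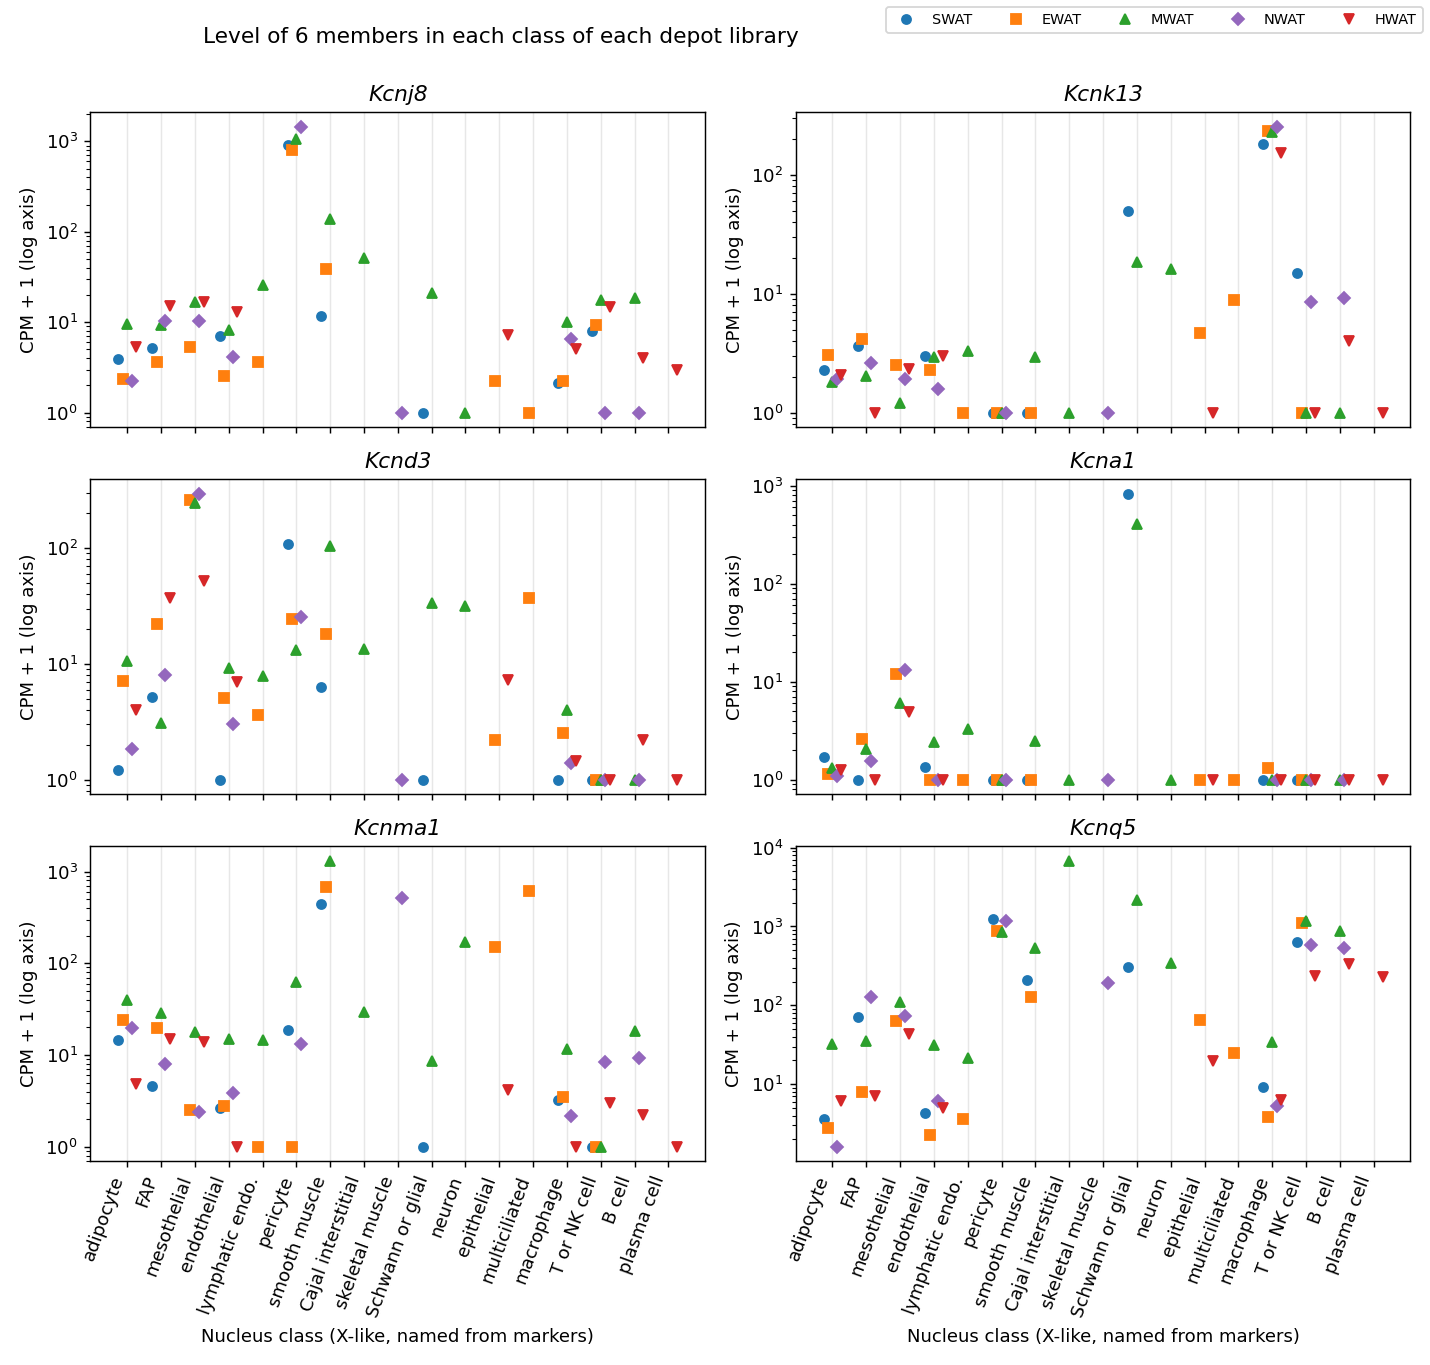
Level of Kcnj8, Kcnk13, Kcnd3, Kcna1, Kcnma1 and Kcnq5 (CPM plus 1, log axis) in each marker-defined class, with 1 point per depot library that held at least 50 nuclei of the class. Kcnj8 stands highest in pericyte-like nuclei of 4 depots and Kcnk13 in macrophage-like nuclei of 5, whereas Kcnq5 is high in several classes.

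Kcnj8 and Abcc9 encode the pore and the sulfonylurea receptor of the vascular ATP-sensitive channel, and they are neighbours on chromosome 6, 16.2 kb apart. Kcnj8 stood at 1053 CPM (842 to 1300.3) in MWAT, 801 CPM (654 to 973) in EWAT, 1458 CPM (1279 to 1655) in NWAT and 917 CPM (778 to 1073) in SWAT pericyte-like nuclei. Smooth muscle-like nuclei stood at 138 CPM in MWAT, 38.0 CPM in EWAT and 10.7 CPM in SWAT, and the mean over pericyte-like nuclei was 17.0 times theirs. The NWAT level was 1.38 times (1.08 to 1.79) that of MWAT, the next highest depot. No pericyte-like class was named among nuclei of at least 500 genes. Abcc9 stood at 2302 CPM in MWAT, 1760 CPM in EWAT, 1781 CPM in NWAT and 1402 CPM in SWAT pericyte-like nuclei. Abcc9 was one of the markers that named the class, so its place there is fixed by the naming, whereas Kcnj8 was used neither for clustering nor for naming. Kcnj11, the pore of the pancreatic and muscle ATP-sensitive channel, 3.76 kb from its partner Abcc8 on chromosome 7, had 41 UMIs in all named classes, 14 of them in skeletal muscle-like nuclei of NWAT (28.3 CPM).

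The other enriched inward rectifiers were enriched in classes found in 1 or 2 depots. Kcnj2, which holds the resting potential of muscle, stood at 54.7 CPM (36.0 to 79.5) in the skeletal muscle-like nuclei of NWAT, from 27 UMIs. Kcnj16 and Kcnj15 are known from transporting epithelia. Kcnj16 stood at 0 in HWAT (interval up to 11.5 CPM) and 224 CPM (193 to 259) in EWAT epithelial-like nuclei. Kcnj15 stood at 6.24 CPM in HWAT and 113 CPM in EWAT epithelial-like nuclei. The HWAT and EWAT nuclei of this class fell in separate clusters, led by Bpifa1 and Scgb1a1 in HWAT and by Adcy8, Pkhd1 and Mmp7 in EWAT, so the class name covers nuclei that differ in their leading genes. The ratio of Kcnj15 was 4.22, and 2.74 with nuclei of at least 500 genes.

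Of the leak channels, Kcnk13, known in mice from microglia, was enriched in macrophage-like nuclei. It stood at 152 CPM (136 to 169) in HWAT, 227 CPM (192 to 266) in MWAT, 235 CPM (218 to 252) in EWAT, 255 CPM (235 to 275) in NWAT and 182 CPM (163 to 203) in SWAT. The mean of 210 CPM was 6.29 times the 33.4 CPM of Schwann or glial-like nuclei, and in 5 of 5 libraries macrophage-like nuclei had the highest level, at least 3 times that of any other class. HWAT was the lowest, at 0.834 times SWAT, the next lowest depot. Most HWAT macrophage-like nuclei (61.7%) fell in a cluster led by Fcna, Marco and Timd4, while a cluster led by F13a1 and Mrc1 held most of those of each other depot.

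Kcnk2, a leak channel opened by stretch and lipids, was enriched in multiciliated-like nuclei of EWAT, at 521 CPM (435 to 618), 5.70 times the neuron-like level, a ratio of 2.43 with doublets kept and 2.99 at a finer clustering. The same nuclei led for Kcnh3, a voltage-gated gene of the ether-a-go-go family, but from 7 UMIs there and at 3.06 times the next class, a ratio of 1.85 with doublets kept and 1.72 at the finer clustering, where the call was lost. Kcnk6 met the enrichment rule in no class and stood at 21.2 to 33.7 CPM in macrophage-like nuclei of the 5 depots, with overlapping intervals. Kcnk1 stood at 170 CPM in EWAT epithelial-like and 139 CPM in EWAT multiciliated-like nuclei. Kcnk3 had its highest mean, 134 CPM, in nuclei like interstitial cells of Cajal, from 43 UMIs. That was 2.59 times the 51.7 CPM of smooth muscle-like nuclei, so it missed the enrichment rule.

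The calcium-activated genes spread over several classes. Kcnma1, the pore of the large-conductance channel that relaxes muscle, stood at 1317 CPM in MWAT, 685 CPM in EWAT and 443 CPM in SWAT smooth muscle-like nuclei, at 616 CPM in EWAT multiciliated-like nuclei and at 510 CPM in NWAT skeletal muscle-like nuclei. Kcnmb1, its smooth muscle subunit, stood at 67.0 CPM (59.8 to 74.8) in MWAT, 51.9 CPM in EWAT and 37.4 CPM in SWAT smooth muscle-like nuclei and at 83.5 CPM in EWAT multiciliated-like nuclei, from 21 UMIs. Kcnn3, a small-conductance channel known from vascular endothelium, was enriched in lymphatic endothelial-like nuclei, at 81.9 CPM in MWAT and 69.0 CPM in EWAT, 5.44 times the next class but 1.42 times with doublets kept. Higher values lay in unnamed MWAT clusters led by Pdgfra, Kcnn3, Robo2 and Grm7, at 1705 CPM (153 nuclei) and 2687 CPM (120 nuclei). Kcnn4, the intermediate-conductance channel of lymphocytes and red cells, stood at 114 CPM in plasma cell-like nuclei of HWAT, 34.1 to 105 CPM in B cell-like nuclei, 44.8 to 132 CPM in T or NK cell-like nuclei and 155 CPM in EWAT multiciliated-like nuclei. Kcna3, the voltage-gated channel by which T cells are known, had 2 UMIs in all named classes, so its class could not be read at this depth.

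The other members with enough UMIs were spread over classes without a leading one. Kcnh8, a voltage-gated gene of the ether-a-go-go family, stood at 302 CPM in EWAT multiciliated-like nuclei, 268 CPM in EWAT but 0 in HWAT epithelial-like nuclei, and 146 CPM in MWAT and 232 CPM in SWAT Schwann or glial-like nuclei. It had at most 11.4 CPM in any other class of any library, so it was high in 3 classes and low elsewhere. Kcnk5, an alkali-sensitive leak channel, stood at 84.1 CPM in MWAT and 74.3 CPM in EWAT lymphatic endothelial-like nuclei and at 80.5 CPM in EWAT epithelial-like nuclei. Kcne4, a single-pass auxiliary subunit, stood at 31.4 to 49.0 CPM in pericyte-like nuclei and at 13.9 to 48.0 CPM in smooth muscle-like nuclei, from few UMIs. Kcnab2, the second cytosolic subunit, had its highest mean, 36.4 CPM, in T or NK cell-like nuclei, next to 28.3 CPM in macrophage-like nuclei. Kcnip3, a calcium-binding subunit, stood at 52.3 CPM in EWAT FAP-like nuclei and 39.1 CPM in EWAT mesothelial-like nuclei. Kcnd1, Kcng2, Kcnh4, Kcnj13, Kcnn1, Kcnt1 and Kcnu1 had means of at most 21.3 CPM in every class. The 41 members under the limit had 0 to 88 UMIs each over the named classes.

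Within smooth muscle-like nuclei the MWAT library held separate sets of clusters. Clusters made of MWAT nuclei alone, or of MWAT nuclei but for a very small share, held 3494 MWAT nuclei and are called clusters of MWAT alone. Clusters shared with other depots held 117 MWAT nuclei. Kcnab1 stood at 20.9 CPM in the clusters of MWAT alone and 1449 CPM in the MWAT nuclei of the shared clusters, a ratio of 0.0144 (0.0112 to 0.0185), while smooth muscle-like nuclei of EWAT stood at 1501 CPM and those of SWAT at 1249 CPM. The MWAT nuclei of the shared clusters thus had Kcnab1 at the level of the other depots, and the intervals of the 2 sets of MWAT clusters did not overlap.

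Several other members ran the opposite way. Kcnma1 stood at 1341 CPM in the clusters of MWAT alone and 588 CPM in the shared ones, a ratio of 2.28 (1.84 to 2.85). Kcnip1, a calcium-binding subunit of A-type channels, stood at 277 CPM in the clusters of MWAT alone and 27.3 CPM in the shared ones, a ratio of 10.1 (3.94 to 37.2). Kcnb2, a delayed rectifier, stood at 210 CPM in the clusters of MWAT alone and 27.3 CPM in the shared ones, a ratio of 7.70 (3.00 to 28.3). The small-conductance gene Kcnn2 had a ratio of 2.85 (1.44 to 6.63). Kcnip2, the only member enriched in smooth muscle-like nuclei as a class, stood at 94.2 CPM in the clusters of MWAT alone and 6.84 CPM in the shared ones, the second value from 1 UMI, and at 0 in EWAT and SWAT smooth muscle-like nuclei (intervals up to 12.8 and 19.7 CPM). Its enrichment, 4.98 times the next class and 2.72 times with doublets kept, therefore rested on MWAT. Kcnmb1 did not differ beyond counting error, with a ratio of 0.887 (0.489 to 1.80). Kcnmb1 lies on the opposite strand inside Kcnip1, and the sources do not state whether counting used the strand, so reads of the pair cannot be told apart with certainty.

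**Figure D3:**
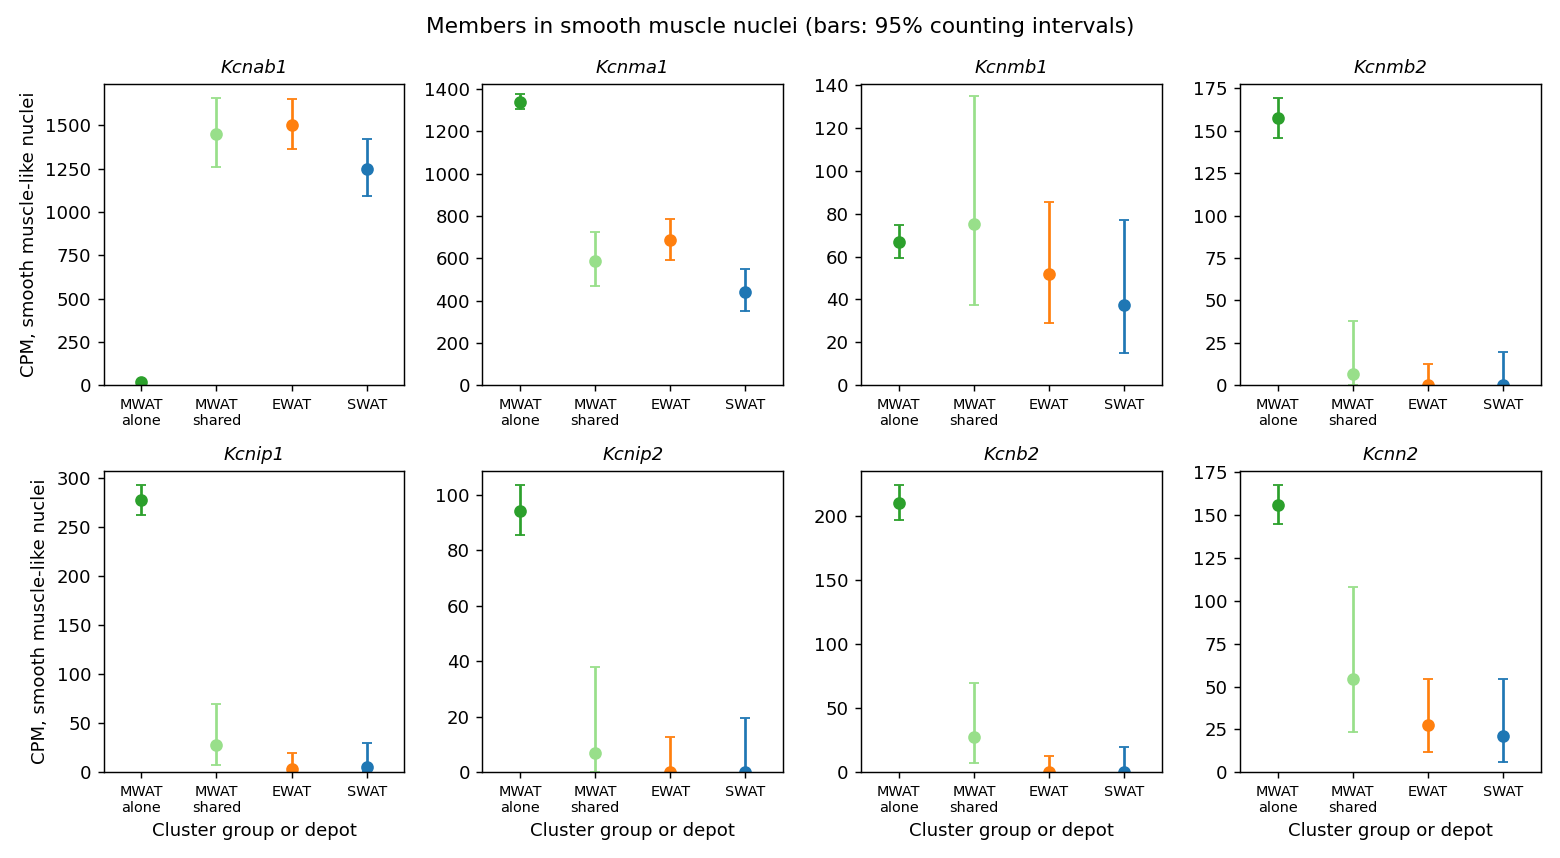
Level (CPM) of 8 members in smooth muscle-like nuclei: clusters made of MWAT nuclei alone or nearly so, MWAT nuclei of clusters shared with other depots, EWAT and SWAT. Points are single pooled libraries or parts of one and bars are 95% counting intervals. Kcnab1 is at 20.9 CPM in the clusters of MWAT alone and above 1200 CPM in the other groups, and Kcnip1, Kcnip2 and Kcnb2 run the opposite way.

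The depots were next compared within 6 classes. A member entered when it had at least 100 UMIs in the class, summed over the depots, and was called when a depot lay at least 2-fold above or below the geometric mean of the other depots. A gene can thus enter mainly through the depot where it is high, and the shares of all genes follow the same rule. By this rule 18 of 20 members in adipocyte-like nuclei were 2-fold apart in at least 1 depot, against 35.6% of all genes tested. The count was 4 of 7 in FAP-like nuclei (25.1% of all genes), 7 of 10 in endothelial-like nuclei (23.2%), 12 of 17 in mesothelial-like nuclei (20.1%), 4 of 8 in macrophage-like nuclei (21.5%) and 0 of 3 in pericyte-like nuclei (20.6%).

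In adipocyte-like nuclei the depots also fell in different clusters. Most nuclei of HWAT (93.3%) were in a cluster led by Slc36a2, Ucp1 and Cidea, most of EWAT (69.8%) in one led by Tshr, most of NWAT (73.7%) in one led by St6galnac5, and most of MWAT (80.1%) and SWAT (53.5%) in one led by Slc1a3, Acvr1c and Nrg4. At Leiden resolution 2 the HWAT nuclei were mainly split. A cluster led by Slc36a2, Lncbate1 and Angptl8, without Ucp1 or Cidea among its leading genes, held 1512, and one led by Ucp1 and Cidea held 201. Member levels were not read apart in these parts. Kcns3, a silent subunit that joins delayed rectifier channels, was the 1 member enriched in adipocyte-like nuclei, with a mean of 114 CPM, 3.33 times the neuron-like level. It stood at 15.4 CPM (11.7 to 20.0) in HWAT, 68.0 CPM in MWAT, 233 CPM (226 to 239) in EWAT, 131 CPM in NWAT and 124 CPM in SWAT. EWAT was 1.78 times (1.70 to 1.86) NWAT, the next highest depot, and HWAT was 0.227 times (0.169 to 0.300) MWAT, the next lowest. Its enrichment did not hold at a stricter mitochondrial limit, at a finer clustering or for the mean over nuclei, where the ratio was 2.90, 1.90 and 2.50.

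Kcnk2 was lowest in HWAT as well, at 2.44 CPM, against 13.9 CPM in MWAT, 16.3 CPM in NWAT, 29.1 CPM in EWAT and 39.7 CPM in SWAT, a ratio to MWAT of 0.176 (0.0777 to 0.349). Kcnj15 stood at 0.813 CPM in HWAT, from 3 UMIs, 14.0 CPM in MWAT, 9.38 CPM in EWAT, 22.2 CPM in NWAT and 4.94 CPM in SWAT, and HWAT was 0.164 times (0.0331 to 0.501) SWAT. Kcnk3, an acid-sensitive leak channel studied in mouse brown adipocytes, had another order: 58.2 CPM (50.7 to 66.6) in HWAT, 40.5 CPM in MWAT, 12.7 CPM (11.2 to 14.3) in EWAT, 31.7 CPM in NWAT and 42.8 CPM in SWAT. EWAT was 0.400 times (0.347 to 0.462) NWAT, and HWAT was 1.36 times (1.16 to 1.59) SWAT. Thus HWAT was lowest for Kcns3, Kcnk2 and Kcnj15 and highest for Kcnk3. Over the 20 members tested, 7 were 2-fold lower in HWAT, against 18% of all genes, with a median log2 difference of -0.85 for the members and -0.27 for all genes. Markers of other cell types also differed in HWAT adipocyte-like nuclei: B cell markers summed to 141 CPM in HWAT and 1.54 to 8.88 CPM in the other depots, and macrophage markers to 458 CPM in HWAT and 191 to 276 CPM in the other depots. Their part in the HWAT values was not tested.

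In MWAT adipocyte-like nuclei 13 of 20 members were 2-fold above the other depots, against 6.93% of all genes, with a median log2 difference of 1.41 for the members and 0.07 for all genes. This count is not independent of the UMI limit either: of 303 UMIs of Kcnq5 in the class, 19 were in HWAT, the next highest depot. Kcnq5 stood at 31.6 CPM in MWAT, 5.15 CPM in HWAT, 1.77 CPM in EWAT, 0.609 CPM in NWAT and 2.65 CPM in SWAT, and MWAT was 6.15 times (3.83 to 10.4) HWAT. The summed level of 9 smooth muscle markers moved the same way, at 1100 CPM in MWAT (9 of 9 detected) and 108 to 362 CPM in adipocyte-like nuclei of the other depots. When a library-wide profile at 10% of each class's UMIs was subtracted, Kcnq5, Kcnab1 and Kcnip1 came to 0 in MWAT adipocyte-like nuclei and Kcnma1 to 9.47 CPM, below its level of 13.7 CPM in SWAT. The count above the other depots was then 9 of 20, against 8.63% of all genes. Among those 9 were Kcnd3, Kcnj15 and Kcnt2. Kcnd3 stood at 9.53 CPM in MWAT, 2.98 CPM in HWAT, 6.11 CPM in EWAT, 0.844 CPM in NWAT and 0.215 CPM in SWAT, the last from 3 UMIs and 0.255 times (0.0481 to 0.872) NWAT, a ratio of 0.0986 to 0.403 under the alternatives. Kcnd3 was also the member enriched in mesothelial-like nuclei. Mesothelial markers in adipocyte-like nuclei summed to 246 CPM in MWAT, 249 CPM in HWAT and 84.2 CPM in EWAT. They summed to 39.5 CPM in NWAT and 3.58 CPM in SWAT, and their part in the Kcnd3 levels was not tested.

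**Figure D4:**
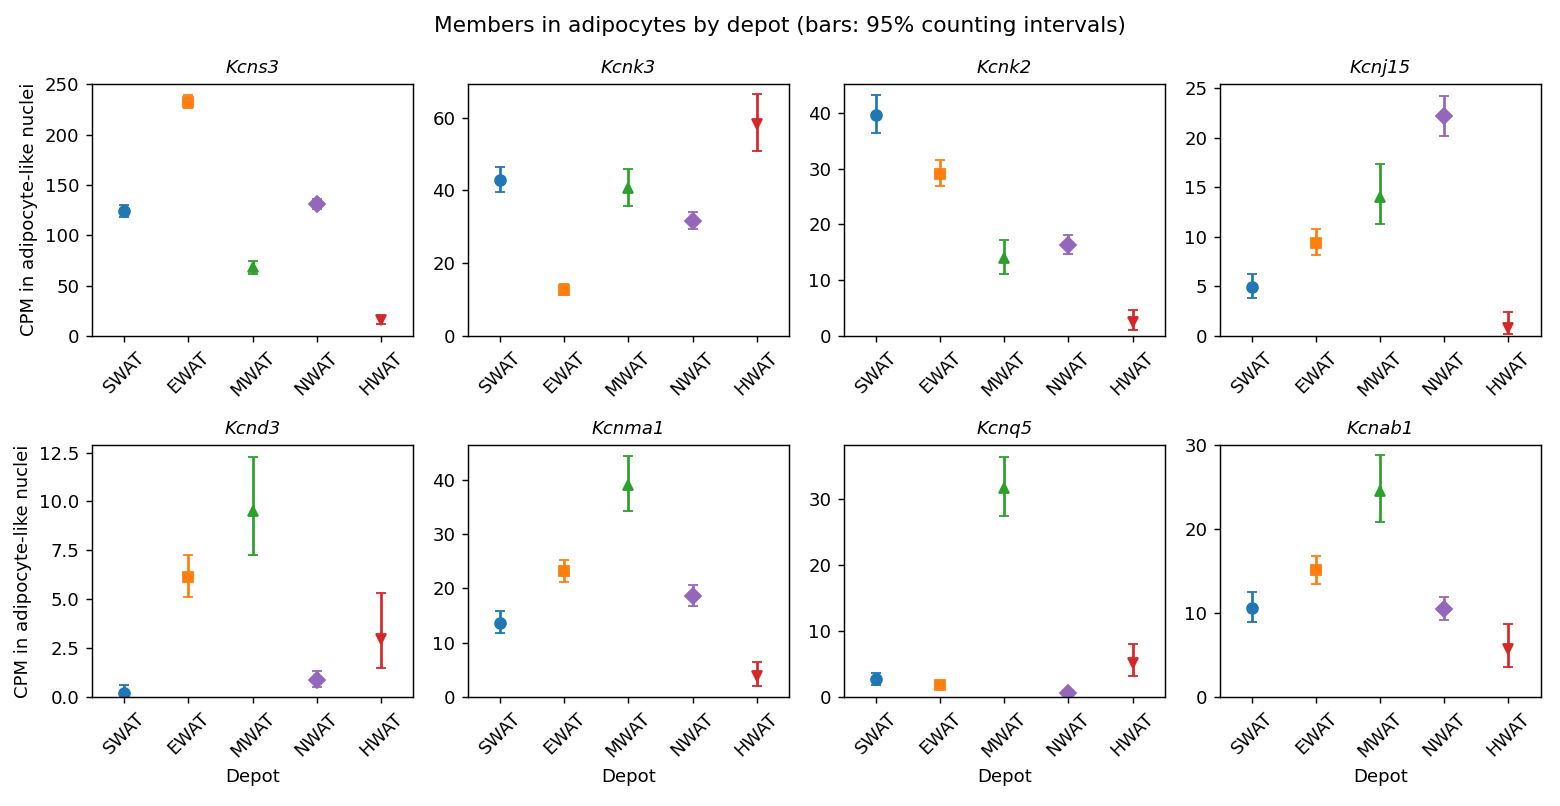
Level (CPM) of 8 members in adipocyte-like nuclei of each depot, with 95% counting intervals as bars and 1 pooled library per depot. HWAT is lowest for Kcns3, Kcnk2 and Kcnj15 and highest for Kcnk3, and MWAT is highest for Kcnq5 and Kcnab1.

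In mesothelial-like nuclei 7 of 17 members were 2-fold higher in MWAT (4.86% of all genes) and 8 of 17 were 2-fold lower in HWAT (10.2% of all genes). The count for MWAT is not independent of the UMI limit, since some members entered mainly through MWAT. Of 363 UMIs of Kcnb2 in this class, 11 were in NWAT, the next highest depot, and of 208 of Kcnmb2, 22. The 4 depots were again in different clusters: most MWAT nuclei were in one led by Upk1b, Wt1 and Isl1, most HWAT nuclei in one led by Sntg1 and Nkain4, and most EWAT and NWAT nuclei in one led by Nxph1 and Rbfox1. Kcnip1 stood at 156 CPM (145 to 168) in MWAT, 8.32 CPM in HWAT, 7.02 CPM in EWAT and 3.24 CPM in NWAT, with MWAT at 18.8 times (14.3 to 25) HWAT. Kcnb2 stood at 65.4 CPM in MWAT, 3.65 CPM in HWAT, 1.83 CPM in EWAT and 5.09 CPM in NWAT, with MWAT at 12.8 times (7.08 to 26.0) NWAT. Kcnmb2 stood at 36.2 CPM in MWAT, 0.292 CPM in HWAT, 1.83 CPM in EWAT and 10.2 CPM in NWAT, the HWAT value from 2 UMIs. Each of these genes was highest in MWAT with an interval apart from the other depots. Smooth muscle markers summed to 896 CPM in MWAT, 189 CPM in HWAT, 549 CPM in EWAT and 389 CPM in NWAT mesothelial-like nuclei. After the free-RNA profile was subtracted, MWAT stood at 162 CPM for Kcnip1, 63.8 CPM for Kcnb2 and 34.4 CPM for Kcnmb2.

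HWAT mesothelial-like nuclei were low in the pair Kcnab1 and Kcnd3, whose levels are given above. Kcnab1 in HWAT was 0.162 times (0.147 to 0.178) NWAT, and Kcnd3 in HWAT was 0.208 times (0.184 to 0.235) MWAT. Both intervals lay below 1, but they cover counting error only and HWAT is 1 pooled library. B cell markers in mesothelial-like nuclei summed to 187 CPM in HWAT and 2.75 to 9.26 CPM in the other depots, and their part in these values was not tested. Kcnt2, a sodium-activated channel, was called in no depot of this class.

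**Figure D5:**
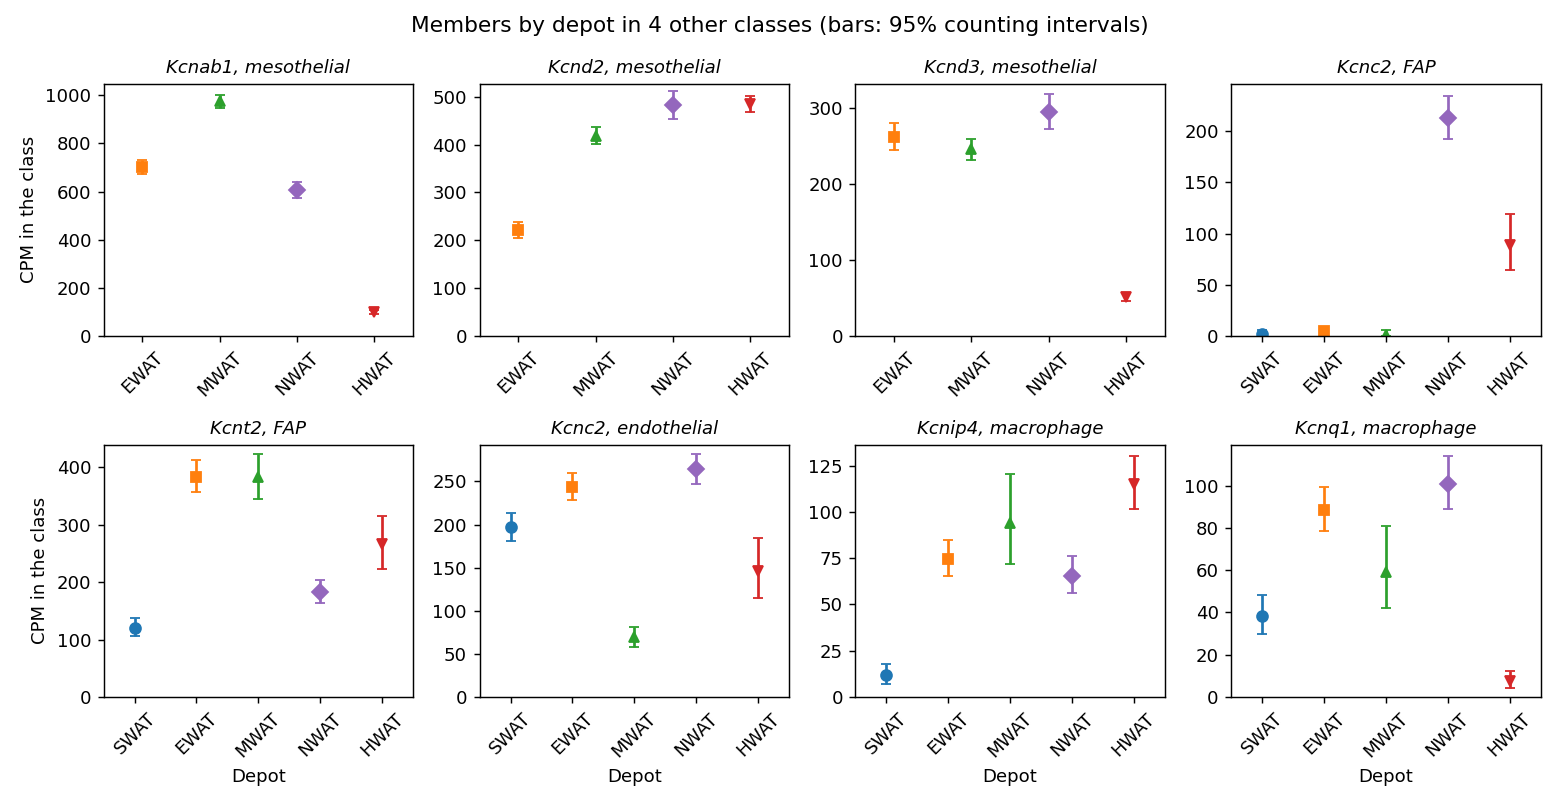
Level (CPM) of members in mesothelial-like, FAP-like, endothelial-like and macrophage-like nuclei by depot, with 95% counting intervals as bars and 1 pooled library per depot (SWAT is left out for mesothelial-like nuclei, of which it held 2). HWAT is lowest for Kcnab1 and Kcnd3 in mesothelial-like nuclei and for Kcnq1 in macrophage-like nuclei, and NWAT is highest for Kcnc2 in FAP-like nuclei.

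In FAP-like nuclei Kcnt2 stood at 266 CPM in HWAT, 383 CPM in MWAT, 384 CPM in EWAT, 183 CPM in NWAT and 120 CPM in SWAT. Most SWAT (74.7%) and NWAT (56.6%) nuclei of this class were in a cluster led by Pde11a, the rest and the other depots mostly in one led by Sult1e1, Scara5 and Pi16. Kcnc2, a fast-spiking channel gene that was singled out after its values were seen, stood at 212 CPM (192 to 235) in NWAT, 88.6 CPM (64.4 to 119) in HWAT, 1.04 CPM in MWAT (1 UMI), 4.75 CPM in EWAT and 2.09 CPM in SWAT FAP-like nuclei. NWAT was 2.40 times (1.75 to 3.35) HWAT. In endothelial-like nuclei the same gene stood at 264 CPM in NWAT, 147 CPM in HWAT, 69.0 CPM in MWAT, 244 CPM in EWAT and 197 CPM in SWAT, so it was present in that class of all 5 depots. Endothelial markers in FAP-like nuclei summed to 377 CPM in NWAT, 90.6 CPM in HWAT, 340 CPM in MWAT, 366 CPM in EWAT and 217 CPM in SWAT, and their part in the Kcnc2 levels was not tested. Kcnq5 in FAP-like nuclei stood at 126 CPM in NWAT, 70.9 CPM in SWAT, 34.2 CPM in MWAT, 6.86 CPM in EWAT and 6.04 CPM in HWAT.

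In endothelial-like nuclei Kcne3, a single-pass auxiliary subunit, stood at 14.9 to 37.6 CPM. Kcna5 stood at 33.5 CPM (27.7 to 40.1) in NWAT, above 5.27 to 14.6 CPM in the other depots. Kcnt2 stood at 0.858 CPM in NWAT, from 3 UMIs, 45.5 CPM in HWAT, 20.1 CPM in MWAT, 60.1 CPM in EWAT and 6.33 CPM in SWAT, with NWAT at 0.135 times (0.0257 to 0.460) SWAT. NWAT was lowest under other settings too, but the size of the difference moved: with no doublets removed the ratio was 0.656, and with free RNA subtracted NWAT came to 0. A cluster led by Vwf and Myrip held 32.8% of MWAT endothelial-like nuclei, while a cluster led by Car4 and Gpihbp1 was the most common in the other 4 depots.

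In macrophage-like nuclei Kcnq1, a channel of heart and epithelia, stood at 7.57 CPM (4.41 to 12.1) in HWAT, 59.0 CPM in MWAT, 88.3 CPM in EWAT, 101 CPM in NWAT and 38.2 CPM in SWAT, with HWAT at 0.198 times (0.109 to 0.341) SWAT. Adipocyte markers in macrophage-like nuclei summed to 690 CPM in HWAT and 1951 to 3317 CPM in the other depots, the same lowest depot, and their part in the Kcnq1 levels was not tested. Kcnq1 overlaps the non-coding gene Kcnq1ot1 on the opposite strand. Kcnip4, another calcium-binding subunit, was enriched in neuron-like nuclei of MWAT at 838 CPM (730 to 956), 6.55 times the next class and 2.81 times by the mean over nuclei. The ratio was 32.8 with doublets kept, where the next class of the main clustering, nuclei like interstitial cells of Cajal, was not named. In macrophage-like nuclei Kcnip4 stood at 11.6 CPM (7.19 to 17.8) in SWAT, 93.9 CPM in MWAT, 74.7 CPM in EWAT, 65.5 CPM in NWAT and 115 CPM in HWAT. SWAT was 0.177 times (0.107 to 0.280) NWAT. Kcnq1 and Kcnip4 thus had different lowest depots, while Kcnk13 stayed within 152 to 255 CPM over all 5.

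Genes that work beside the channels were taken from 4 further lists. Of 12 partner proteins 7 had enough UMIs and 2 were enriched in 1 class: Abcc9, as above, and Dpp10, a membrane partner of A-type channels, in smooth muscle-like nuclei with 579 CPM in MWAT. Of 11 genes of the sodium-potassium pump, which builds the gradient, 10 had enough UMIs and none was enriched in 1 class. Of 21 other genes of potassium transport 14 had enough UMIs and 4 were enriched, among them Hcn4, a pacemaker channel, at 131 CPM in nuclei like interstitial cells of Cajal. Of 10 pore genes of voltage-gated calcium channels 9 had enough UMIs and 3 were enriched, among them Cacna1d at 771 CPM in nuclei like interstitial cells of Cajal. The pump genes, with 0 of 10 enriched, and the channel members, with 21 of 52, are set beside the 14.3% of all genes as counts only. In adipocyte-like nuclei 5 of 9 pump genes were 2-fold apart in at least 1 depot, against 35.6% of all genes.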

How the data were processed

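Nuclei of 5 pooled fat depots were profiled with 10x Genomics 3′ V3 chemistry, 1 library per depot. The deposited matrices hold raw UMI counts per gene and barcode, and per the file headers the authors' counting tool was Cell Ranger 6.0.1; the submitters' processing notes name mm10, Cell Ranger and Seurat. The annotation release and the use of strand are not given in the sources used here. No barcode held under 500 UMIs, and 0 columns belonged to other samples.

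Barcodes with at least 200 genes and at most 10% mitochondrial UMIs were kept (149 failed). Doublets were scored against simulated doublets and removed at 0.8% per 1000 barcodes (9642 nuclei). The 5 libraries were clustered together without batch correction on 2000 variable genes, with members left out, 40 components, 20 neighbours and Leiden resolution 1 (leidenalg 0.10.2, scikit-learn 1.9.0, Python 3.11.15). Clusters without a name were split once at resolution 0.5, a step chosen after seeing the data. A cluster was named from marker genes when their mean log2 fold was at least 1 and led the next list by 0.5, with at least 3 markers, and at least 2/3 of the list, raised 2-fold. It stayed unnamed when another list held more of its leading genes. The same held when its nuclei had few UMIs and no own marker was among its leading genes. UMIs were summed per class and library and divided by the class total (CPM). Depot differences are log2 CPM, with 0.5 counts added, minus the mean log2 CPM of the other depots. Intervals are exact Poisson intervals at 95%, and ratio intervals are conditional on the summed counts. A class entered with at least 50 nuclei in a library and a gene with at least 100 counts. The method was tested on simulated data.

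Named genes were those with the largest class ratio (up to 5 per class), those whose highest depot was 3 times the next or whose lowest was the next lowest divided by 3, or less (up to 5 per class), those at 1 CPM in every class, and Kcnj8, Kcnj11, Kcnma1, Kcnmb1, Kcnn3, Kcnk3 and Kcna3; others are described from the lists and families. The members and lists were chosen with earlier results of these data known. Member coordinates come from GENCODE vM21 (GRCm38; 93 of 93 matched by ID). By that annotation, 33 of 93 members overlap another counted gene. The alternatives tried were doublet settings, gene and mitochondrial limits, clustering settings, a free-RNA subtraction, per-nucleus means, a lower count limit and leaving out HWAT, and, added after seeing the data, leaving out MWAT and a count limit within the leading class. Some genes that the counts include are not reported here by name.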

Additional observations from a re-analysis of the deposited data

How the results depend on the processing

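The count of members enriched in 1 class (21) was 17 to 21 under the other settings except the lower count limit, but not of the same genes: 12 were shared with no doublets removed, 15 at 500 genes per nucleus and 17 at Leiden resolution 2. With at least 20 counts it was 32 of 74 (18.8% of all genes), and the members 2-fold apart were 40 of 46 in adipocyte-like (45.3% of all genes), 18 of 22 in FAP-like (36.6%), 22 of 26 in endothelial-like (35.1%), 24 of 35 in mesothelial-like (29.8%) and 22 of 26 in macrophage-like nuclei (33.6%). With no doublets removed it was 7 of 10 in FAP-like (24.7%) and 12 of 16 in endothelial-like nuclei (25.2%), where 7 and 10 members are tested otherwise (cause not tested). Leaving out HWAT gave 7 of 14 in mesothelial-like nuclei (10.2%). Leaving out MWAT, added after seeing the data, gave 4 of 10 in endothelial-like (21.2%) and 6 of 10 in mesothelial-like nuclei (17.3%). Of 263 values for named genes under the alternatives, 217 kept their direction and moved by less than 1.5 times, 43 moved further and 3 reversed: Kcng3 (0.752) and Kcnq5 (0.128) in nuclei like interstitial cells of Cajal with member genes used for clustering, where the cluster with most Kcnq5 went unnamed, and Kcnq5 in MWAT adipocyte-like nuclei (0) with free RNA subtracted. No class like interstitial cells of Cajal was named with no doublets removed, and no pericyte-like class at 500 genes. Kcnk13 stayed at 5.01 to 6.49 and Kcna1 at 73.2 to 88.0 times the next class under every setting run. No paired analysis was possible because each depot is 1 library. Depth limits members under 100 UMIs and classes of under 100 nuclei, where 1 UMI is worth several CPM.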
